A study of Aphis gossypii with 6 samples.

Results

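The cotton aphid, Aphis gossypii, has 2 genes that the deposited annotation describes as peroxiredoxin-6-like, LOC114126282 and LOC114132436, among the 14013 genes listed. They were selected on that shared description and on their measured counts and FPKM, which ran in opposite directions between the strains, so their strain difference is given as a description without a test. RNA was sequenced from pooled whole bodies of RGL, which resists the pyrethroid insecticide beta-cypermethrin, and of SGL, a sensitive strain whose genotype is labelled WT, with 3 libraries from each. Neither strain had been exposed to beta-cypermethrin, and the resistant population came from a field of Chinese wolfberry, per the series' title and design text. The sources used here do not state the age or wing form of the aphids. Each condition is 1 strain, so a difference belongs to the pair of strains and cannot be tied to resistance. As separate cultures are not named, the spread between libraries may be technical.

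Peroxiredoxins are thiol peroxidases that reduce hydrogen peroxide and organic peroxides through a reactive cysteine. Peroxiredoxin 6 is the class with a single such cysteine. In mammals it is recharged by glutathione with the help of a glutathione S-transferase, it also reduces peroxidised phospholipids, and it carries a phospholipase A2 activity. The other peroxiredoxins mostly draw their electrons from thioredoxin.

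The libraries held 31290134 to 46681719 counts, and between 11702 and 12072 genes had a count in each. Resistant replicate 1 stood apart from its strain: 624 and 875 tested genes differed over 2-fold between it and resistant replicates 2 and 3, against 205 between those replicates and 218 to 247 between susceptible pairs. The tissues of a whole body were represented in each library, with all 8 muscle, all 7 nervous system and all 4 germline marker genes counted throughout. Of 50 cuticle and 17 gut genes, 47 and 14 were. As these are bulk samples, fewer cells of a type and less RNA per cell cannot be told apart.

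No read in any resistant library was assigned to LOC114126282. Its counts were 0, 0 and 0 in resistant replicates 1 to 3, against 607, 561 and 568 in susceptible replicates 1 to 3. Scaled to library size with TMM factors and given as CPM, that was 0 in each resistant library and 15.9, 16.2 and 17.0 CPM in the susceptible ones. The strains are fully separated on this gene and the susceptible libraries lie close together. At the susceptible mean of 16.4 ± 0.58 CPM (SD, n = 3), the resistant libraries together would have held 1795 counts. Had the 3 resistant libraries together held 3 counts, taken here as the limit that a count of 0 allows, the level would be 0.0274 CPM. On that limit the gene was at least 598-fold lower there, a bound that reflects counting error alone.

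LOC114132436 was counted in every library and was higher in the resistant strain. Resistant replicates 1 to 3 gave it 2424, 3309 and 2688 counts, and susceptible replicates 1 to 3 gave it 2235, 1813 and 1885. After TMM scaling it stood at 90.3, 71.7 and 73.3 CPM in the resistant libraries and at 58.4, 52.5 and 56.4 CPM in the susceptible ones. The strains did not overlap, and resistant replicate 1 was the highest library. The resistant mean was 78.5 ± 10.3 CPM and the susceptible mean 55.8 ± 3.02 CPM (SD, n = 3 each), a ratio of 1.41 and a fitted log2 fold change of 0.49 ± 0.11 (SE). Without resistant replicate 1 the log2 ratio of the means was 0.38. Of the 11149 genes tested across the whole table, 54.1% had strains that did not overlap, and 28.2% had them apart with the resistant strain higher, so that separation is common here.

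The size of the difference in LOC114132436 moved with the scale. On the deposited FPKM scale, which allows for gene length and library size but not for TMM factors, the gene had 59.6, 55.6 and 57.6 FPKM in the resistant libraries and 47.3, 42.1 and 46.4 FPKM in the susceptible ones. On that scale the resistant libraries were almost level, with a resistant mean of 57.6 ± 1.97 FPKM and a susceptible mean of 45.3 ± 2.74 FPKM, a ratio of 1.27. The TMM factor of resistant replicate 1 was 0.858 and those of the other libraries lay between 0.988 and 1.06. The direction was the same on both scales.

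**Figure D1:**
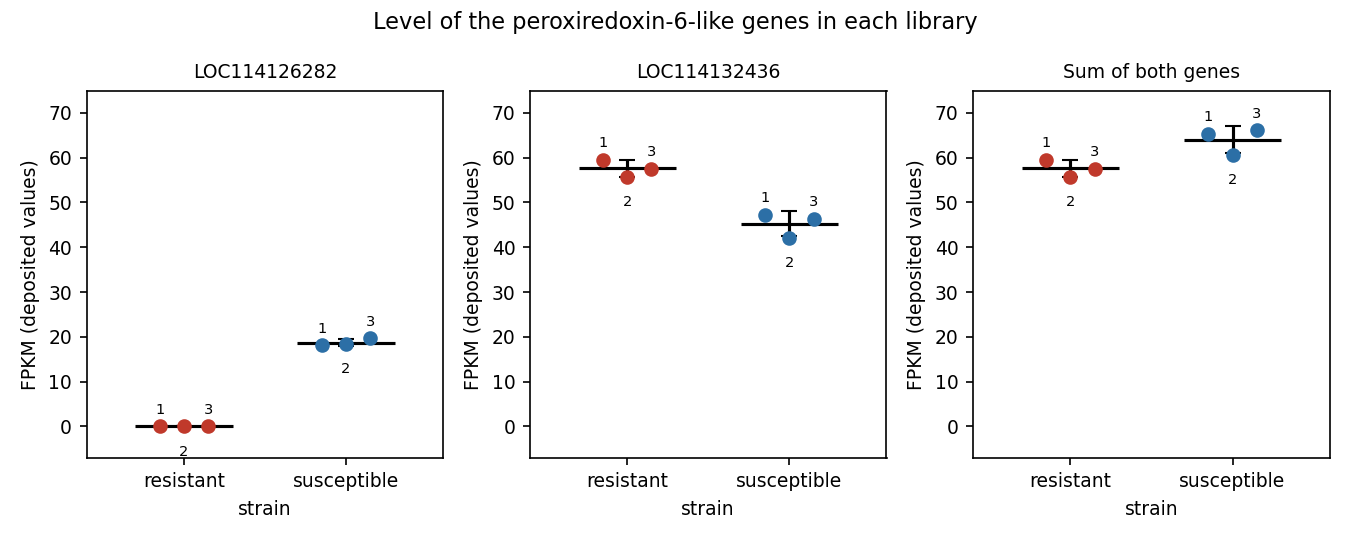
Deposited FPKM (vertical axis) of LOC114126282, LOC114132436 and their sum in 3 resistant (left, red) and 3 susceptible (right, blue) libraries, numbered by replicate; lines are means and bars are SDs. LOC114126282 sits at 0 in all resistant libraries, LOC114132436 is above 55 FPKM in each resistant library and below 48 in each susceptible one, and the sums lie between 55.6 and 66.1 FPKM.

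Within the susceptible strain, where both genes were transcribed, LOC114132436 was the more abundant per length. LOC114126282 had 18.1, 18.4 and 19.7 FPKM in susceptible replicates 1 to 3. LOC114132436 exceeded it 2.61-, 2.29- and 2.36-fold in those libraries, and LOC114126282 made up 29.3 ± 1.42% of their summed FPKM (SD, n = 3). Among the 12529 genes with an FPKM above 0 in the susceptible strain, LOC114126282 lay above 61.3% and LOC114132436 above 83.9%. In the resistant strain LOC114132436 lay above 87.6% of 12501 genes.

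The summed transcript level of the pair was close in both strains, and which strain had the higher mean rested on the scaling. In the deposited FPKM every resistant sum lay below every susceptible one. As deposited, the sum was 59.6, 55.6 and 57.6 FPKM in the resistant libraries against 65.3, 60.5 and 66.1 FPKM in the susceptible ones, with means of 57.6 ± 1.97 and 64.0 ± 3.02 FPKM (SD, n = 3 each). After division by the TMM factors, a step added once the values had been seen, the sums were 69.4, 56.3 and 57.2 in the resistant and 61.7, 57.7 and 62.6 in the susceptible libraries. The resistant mean was then 61.0 ± 7.34 and the susceptible mean 60.7 ± 2.60, and the strains overlapped. That overlap came from resistant replicate 1, the highest of all libraries. Resistant replicates 2 and 3 still lay below every susceptible library.

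LOC114126282 was steady between the susceptible libraries. Its coefficient of variation was 3.53%, below the 4.16% that counting alone gives at its depth, and 17.2% of the 3186 genes within 2-fold of its level had a lower one; their median was 6.85%. LOC114132436 varied by 13.1% among resistant and 5.41% among susceptible libraries, against medians of 11.5% and 4.46% for genes of its level. The spread of LOC114132436 was thus close to the median for its level in both strains.

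The deposited annotation of the 2 genes overlaps beyond their name. Each has an AhpC/TSA domain, the fold of peroxiredoxins, which 6 listed genes share. Each has the same best Swiss-Prot match, a 1-Cys peroxiredoxin of the nematode Dirofilaria immitis, and they are the only 2 genes with the KEGG entry for peroxiredoxin 6 and that match. Both belong to the KEGG pathway of glutathione metabolism, with 63 listed genes. Besides the pair, 56 of these were tested, with 26 higher and 3 lower in the resistant strain (median log2 fold change 0.39). Over all tested genes 21.4% were higher and 14.4% lower. All 39 Gene Ontology terms of LOC114126282 were also given to LOC114132436, which had 55. The length implied by counts and FPKM was 926 bases for LOC114126282 and 1292 bases for LOC114132436. Their sequences were not used here, so how alike the 2 transcripts are, and how reads shared between them were assigned, was not tested. A missing or altered copy of LOC114126282 in the resistant strain and a silent one cannot be told apart from counts.

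A peroxiredoxin name appeared in the annotation of 7 genes, and none of them is a locus that the authors added to the gene set. In descending order of susceptible FPKM they were the peroxiredoxin 1 gene LOC114130266, the mitochondrial peroxiredoxin-5 gene LOC114123807, LOC114128133, LOC114120836, LOC114132436, the peroxiredoxin-2-like LOC114119582 and LOC114126282. LOC114128133, uncharacterized by description, has a peroxiredoxin as its Swiss-Prot match and was added to the set for that after its values had been seen. The order of LOC114128133 and LOC114120836 reversed in the resistant strain, where their libraries overlapped. LOC114119582 and LOC114126282 were level in the susceptible strain, at 18.8 and 18.7 FPKM. The pair contributed 4.50 ± 0.09% of the summed peroxiredoxin FPKM in resistant and 6.32 ± 0.20% in susceptible libraries (SD, n = 3 each), a share that library scaling cannot alter.

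Among the other 5 peroxiredoxin genes 2 were called higher in the resistant strain and none lower (quasi-likelihood test of edgeR, adjusted p under 0.05 after Benjamini-Hochberg correction over all genes), where 21.4% of all tested genes were called higher and 14.4% lower. Those shares stand for 2383 and 1611 genes. They became 1759 and 2322 with library totals as the only scaling. With resistant replicate 1 left out they were 3249 and 2826. With susceptible replicates 1, 2 and 3 left out in turn, the higher count was 1664, 1692 and 1593 and the lower count 812, 788 and 789. Calls were thus lost across all genes when a susceptible library was left out. LOC114130266, the most abundant, belongs to the cytosolic type that uses thioredoxin. It had 1052, 766 and 802 CPM in the resistant and 591, 574 and 594 CPM in the susceptible libraries, a log2 fold change of 0.57 ± 0.13 (SE, edgeR adjusted p = 0.0109). Every resistant library was above every susceptible one, with resistant replicate 1 the highest. The call was lost without susceptible replicate 1, 2 or 3, where the adjusted p was 0.0508, 0.0571 and 0.0580 at log2 fold changes between 0.56 and 0.58. LOC114123807, which acts in mitochondria, had 298, 228 and 217 CPM in the resistant and 175, 174 and 165 CPM in the susceptible libraries, without overlap (log2 fold change 0.53 ± 0.13, edgeR adjusted p = 0.0121). Without susceptible replicates 2 and 3 its adjusted p was 0.0518 and 0.0705.

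The remaining 3 did not pass with all 6 libraries. LOC114119582 had a log2 fold change of 0.32 ± 0.11 (edgeR adjusted p = 0.0558), with resistant libraries at 27.5 to 33.0 CPM and susceptible ones at 23.1 to 25.5 CPM. It passed without resistant replicate 1 (adjusted p = 0.0097), without resistant replicate 3 (0.0342) and with DESeq2 (0.0431). LOC114120836 had 0.26 ± 0.11 (edgeR adjusted p = 0.111) and passed without resistant replicate 1 (0.33, adjusted p = 0.00215). LOC114128133 had -0.02 ± 0.11 (edgeR adjusted p = 0.899), and without resistant replicate 1 it was lower (-0.16, adjusted p = 0.0283). Neither edgeR nor DESeq2 called any of the 5 lower with all 6 libraries, and none was lower at an unadjusted p under 0.05. LOC114132436, at 0.49, lay between the called and the uncalled members of its family. LOC114126282 was the only one of the 7 with a library at 0.

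**Figure D2:**
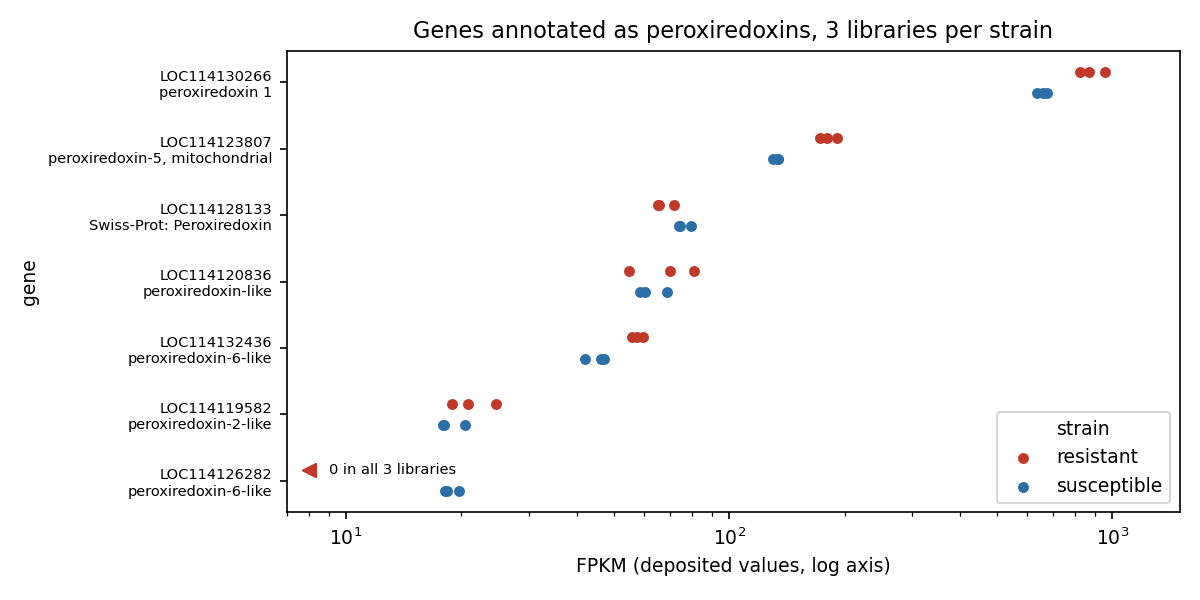
Deposited FPKM (horizontal log axis) of the 7 genes with a peroxiredoxin annotation, 3 resistant libraries (red, upper row of each gene) and 3 susceptible libraries (blue, lower row). The arrow marks LOC114126282, at 0 in the 3 resistant libraries; peroxiredoxin 1, LOC114130266, is the highest at over 800 FPKM in resistant and over 630 in susceptible libraries.

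Complete absence from 1 strain with a substantial level in the other was rare. In all, 43 of the 14013 listed genes (0.307%) had 0 counts in each resistant library and a count in each susceptible one, and 64 (0.457%) had the reverse pattern. LOC114126282 ranked first of the 43 by susceptible CPM and was the only one at 10 CPM or more. Only 3 of the 43 and 11 of the 64 reached 1 CPM, and 0 of the 64 reached 10 CPM.

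The next genes of the kind absent from the resistant strain were far lower in the susceptible strain. They were LOC114121959, a BED zinc finger gene at 3.52 ± 0.59 CPM, and Aphis_gossypii_newGene_2703, a piggyBac transposon-derived gene at 2.23 ± 0.41 CPM (SD, n = 3). The uncharacterized LOC114121696 had 14, 12 and 19 counts and LOC114121334, with a retrotransposon gag domain, had 20, 14 and 11 counts in susceptible replicates 1 to 3. In the reverse direction the highest were LOC114131690, with a MULE transposase domain, at 4.88 ± 0.10 CPM in the resistant strain, and the BED zinc finger gene LOC114131210 at 4.80 ± 0.44 CPM. They were followed by Aphis_gossypii_newGene_2647, a THAP domain gene at 3.21 CPM, and the uncharacterized LOC114123893 and LOC114123018 at 2.47 and 2.15 CPM. Of the 43 genes, 4 had a Swiss-Prot match, LOC114126282 among them, whereas 6079 of the 14013 listed genes had one. A KEGG entry was given to 17 of the 43 and to 9510 of the 14013. That entry carried an enzyme number for 14 of the 43 and for 3628 of the 14013.

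**Figure D3:**
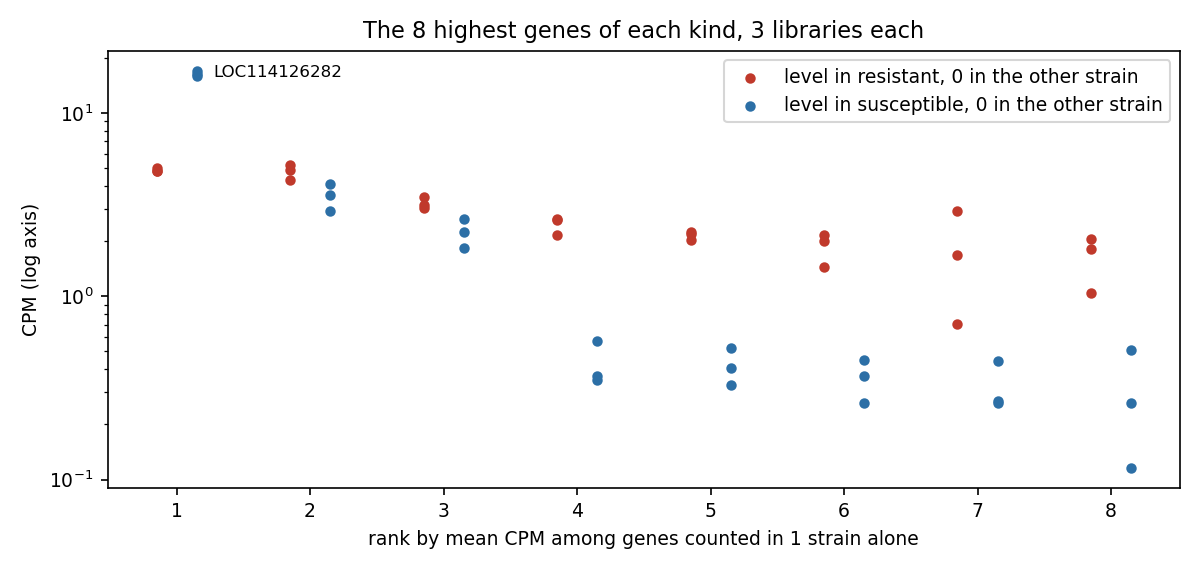
CPM in each library (vertical log axis) of the 8 highest genes counted in the resistant strain alone (red) and the 8 highest counted in the susceptible strain alone (blue), ranked by mean CPM; each column has 3 points, which can coincide. LOC114126282 lies at 15.9 to 17.0 CPM, above all other genes of either kind, which lie near or below 5 CPM.

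The genes that adjoin LOC114126282 were transcribed in both strains. In the reference gene table of assembly ASM2018417v2, which may not be the build behind the counts, 10 genes make up the 5 on each side, and 8 of them were analysed here. All 8 had counts in every resistant library. The nearest on one side, the uncharacterized LOC114126294, was scarce, with 4, 19 and 11 counts in the resistant libraries and 8, 6 and 1 in the susceptible ones, and was not tested. The nearest on the other side, LOC114126284, described as a palmitoyltransferase that attaches lipid to proteins, had 32.4, 32.2 and 29.4 CPM in the resistant and 29.7, 36.9 and 29.0 CPM in the susceptible libraries. Its strains overlapped and its log2 fold change was -0.02 ± 0.12 (edgeR adjusted p = 0.894).

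Of the 7 tested neighbours of LOC114126282, 3 were called higher and 0 lower in the resistant strain, beside 21.4% and 14.4% of all genes, with a median log2 fold change of -0.02. At an unadjusted p under 0.05 the counts were 3 and 0, and DESeq2 likewise called 3 and 0. With library totals alone 1 was higher and 0 lower. LOC114126292, a carboxypeptidase M-like gene, rose to 14.9 ± 3.0 CPM in the resistant strain, against 4.30 ± 0.62 CPM in the susceptible one (log2 fold change 1.79 ± 0.20, edgeR adjusted p = 0.000369). The other risers were smaller: LOC114126278, a ribosome assembly factor (0.43 ± 0.13, edgeR adjusted p = 0.0324), and LOC114126275, a vesicle transport protein (0.32 ± 0.10, edgeR adjusted p = 0.0412). LOC114126278 was not called without resistant replicate 2 or any of the susceptible replicates, where its adjusted p was between 0.0947 and 0.113. LOC114126275 was called in 1 of the 6 fits that left out a library, the one without resistant replicate 1, and its adjusted p reached 0.158 in the others. The ribosomal protein gene LOC114126279 was at 793 CPM in resistant replicate 1 and at 382 and 383 CPM in the other resistant libraries, and without replicate 1 it was lower in the resistant strain (-0.56, adjusted p = 5.56e-07). LOC114126285, an importin subunit, was likewise lower without resistant replicate 3 (-0.48, adjusted p = 0.0439). LOC114126283, an AAA ATPase, was level (-0.05 ± 0.09, edgeR adjusted p = 0.701).

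Around LOC114132436, most called neighbours were higher in the resistant strain. Of 10 neighbours 9 were analysed and tested, with 5 higher and 1 lower in the resistant strain and a median log2 fold change of 0.48, beside 21.4% higher and 14.4% lower over all tested genes. The adjoining LOC114132417, uncharacterized, had 96.4, 70.3 and 64.1 CPM in the resistant and 30.3, 31.2 and 29.5 CPM in the susceptible libraries, a log2 fold change of 1.34 ± 0.15 (edgeR adjusted p = 0.000411). LOC114132430 (0.82 ± 0.09), the transporter-like LOC114132410 (0.75 ± 0.10), the neuroligin-2-like LOC114127235, of a family of cell adhesion proteins at synapses (0.59 ± 0.11), and the cuticle protein LOC114132418 (0.48 ± 0.13) also rose. The filamin-B gene LOC114127245, an actin cross-linker, fell to 423 ± 25.4 CPM in the resistant strain, against 749 ± 50.7 CPM in the susceptible one (-0.82 ± 0.10, edgeR adjusted p = 0.000457). LOC114132427, a mitochondrial cytochrome P450 302a1-like gene, had 0.15 ± 0.15, LOC114127242 had -0.14 ± 0.13 and LOC114127236 had 0.12 ± 0.12, with edgeR adjusted p-values of 0.461, 0.438 and 0.478. Of these 6 calls, that on LOC114132418 was lost without susceptible replicate 1, 2 or 3 (adjusted p = 0.0667, 0.0767 and 0.109), and the other 5 were kept whichever library was left out.

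**Figure D4:**
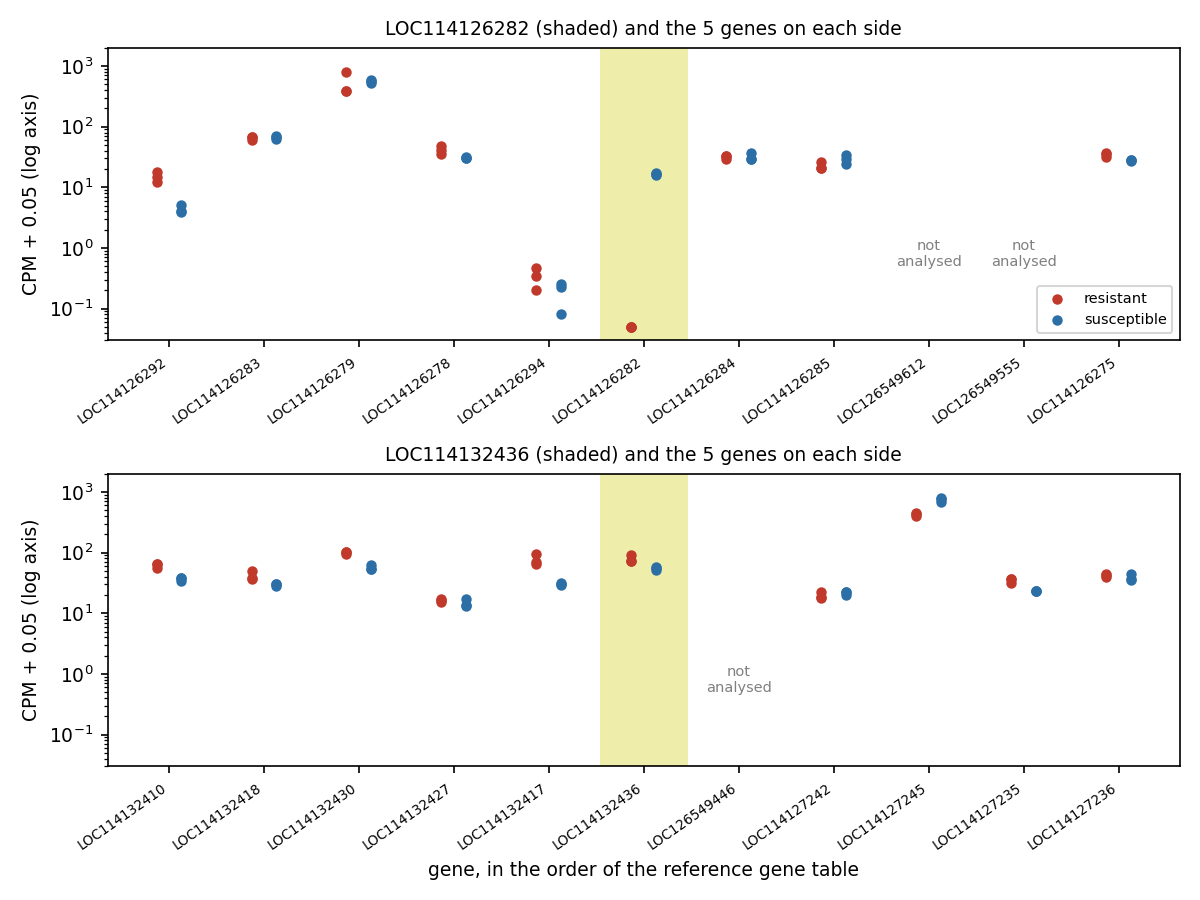
CPM of each library on a log axis (0.05 CPM added) for LOC114126282 (top, shaded) and LOC114132436 (bottom, shaded) and the 5 genes on each side, in the order of the reference gene table; resistant libraries in red to the left, susceptible libraries in blue to the right. LOC114126282 is the only gene shown at 0 CPM in the resistant libraries.

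The genes whose profile was most like each member were found by the root mean square difference of log2 CPM over the 6 libraries, centred on each gene's own mean, among 10401 genes with a mean of at least 1 CPM. For LOC114126282 no gene lay within 1 log2 unit. For a gene at 0 in 1 strain this distance depends on its level in the other strain. Scarcer genes with 0 counts in the same libraries, such as LOC114121959 and Aphis_gossypii_newGene_2703, therefore lie further off. The nearest were LOC114119413, with a retrotransposon peptidase domain (1.10), LOC114121959 (1.12), Aphis_gossypii_newGene_2703 (1.44), Aphis_gossypii_newGene_42, with a transposase-type endonuclease domain (1.87), and LOC114127461, with a reverse transcriptase-type endonuclease domain (1.98). LOC114119413 had 0.316 ± 0.08 CPM in resistant and 24.0 ± 2.57 CPM in susceptible libraries (SD, n = 3 each), and so was not wholly absent. LOC114132436 had a common profile, with 1727 genes within 0.2 log2 units. The closest were the fibrillin-3-like LOC114122467 (0.0271), the L-xylulose reductase-like LOC114128016 (0.0439), the histidine--tRNA ligase LOC114132938 (0.0444), LOC114128148 (0.0467) and the CD63-like tetraspanin LOC114121698 (0.0470). Like LOC114132436, each of these was highest in resistant replicate 1.

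The peroxiredoxin and thioredoxin system was followed as a list. It holds thioredoxins and a thioredoxin reductase, from which most peroxiredoxins draw electrons. It also holds other peroxiredoxins, sestrins, a sulfiredoxin and further genes with thioredoxin-type names. Apart from the pair, 17 genes were tested, of which 6 were higher and 1 was lower in the resistant strain, with a median log2 fold change of 0.26 against 0.00 over all genes. Over all tested genes 21.4% were called higher and 14.4% lower. The list includes LOC114130266 and LOC114123807, described above. LOC114119000, a thioredoxin, the small protein that reduces most peroxiredoxins, had 610, 440 and 507 CPM in the resistant and 230, 219 and 201 CPM in the susceptible libraries. The strains were well apart, at a log2 fold change of 1.26 ± 0.13 (edgeR adjusted p = 0.000251). LOC114124373, a thioredoxin-like protein, rose by 0.77 ± 0.11 (edgeR adjusted p = 0.00123). The gene that fell was the sestrin LOC114118918, of a family of stress-induced proteins, at 7.58 ± 0.31 CPM in resistant and 11.4 ± 1.36 CPM in susceptible libraries (-0.59 ± 0.15, edgeR adjusted p = 0.0174). That call was lost without susceptible replicate 1 or 2 (0.0512 and 0.0863). Another sestrin of the list, LOC114118929, named outside the rule, was more abundant and was not called. It had 67.2 ± 7.46 CPM in resistant and 70.6 ± 2.73 CPM in susceptible libraries (-0.07 ± 0.10, edgeR adjusted p = 0.612). In the whole list, the number higher was 3 without susceptible replicate 2 and 3 without susceptible replicate 3. Over all genes those fits called 1692 and 1593 higher, in place of 2383. The number lower was 2 with resistant replicate 3 left out and 0 with susceptible replicate 1 or 2 left out.

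Glutathione is the reductant of mammalian peroxiredoxin 6, and of 32 genes of the glutathione system 13 were higher and 3 lower (median 0.26), beside 21.4% and 14.4% of all tested genes. The risers named by the rule were glutathione hydrolases, enzymes that cleave glutathione outside the cell. LOC114128399 reached 91.3 ± 1.76 CPM in the resistant strain, against 21.8 ± 3.49 CPM in the susceptible one (2.07 ± 0.12, edgeR adjusted p = 2.54e-05), and LOC114125485 reached 213 ± 15.7 CPM against 57.6 ± 1.68 CPM (1.89 ± 0.09, edgeR adjusted p = 1.02e-05). The 3 genes that fell were LOC114122440, a glutaredoxin domain protein (-0.70 ± 0.11, edgeR adjusted p = 0.00207), LOC114127564, with a glutathione S-transferase C-terminal domain (-0.44 ± 0.13, edgeR adjusted p = 0.0291), and LOC114132368. The last is a regulatory subunit of glutamate--cysteine ligase, the first enzyme of glutathione synthesis (-0.37 ± 0.11, edgeR adjusted p = 0.0294). It is named outside the rule, after its values were seen, to complete the count. So are the next 4 genes. LOC114132370 and LOC114132371, of the same description, were not called (0.40 ± 0.20 and 0.20 ± 0.16, edgeR adjusted p = 0.149 and 0.372). Nor was the catalytic subunit LOC114120842 (0.29 ± 0.14, edgeR adjusted p = 0.129). The glutathione synthetase LOC114131644 was higher (0.65 ± 0.08, edgeR adjusted p = 0.000593). Apart from LOC114127564, genes described as glutathione S-transferases were added beyond the rule too, with their levels known. LOC114127459 (0.98 ± 0.15), LOC114122094 (0.75 ± 0.10), LOC114129888 (0.70 ± 0.10), LOC114120642 (0.50 ± 0.13) and LOC114127456 (0.36 ± 0.09) were higher. Their edgeR adjusted p lay between 0.000936 and 0.0168. LOC114126739, LOC114121166 and LOC114120641 were not called (0.21 ± 0.13, 0.16 ± 0.30 and -0.02 ± 0.16). LOC114127564 lost its call when resistant replicate 2 or susceptible replicate 1, 2 or 3 was left out (adjusted p = 0.0516, 0.0978, 0.0842 and 0.0855). LOC114132368 lost its call in the same 4 cases (adjusted p = 0.0881, 0.0525, 0.11 and 0.104). The number lower was 1 in each of those 4 cases.

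All 5 genes of the list for removal of superoxide and hydrogen peroxide by other routes were higher, with a median of 0.85. Over all tested genes 21.4% were higher. Besides superoxide dismutases and a catalase, the list holds LOC114131297, a peptide methionine sulfoxide reductase, which acts on oxidised methionine instead (0.55 ± 0.11, edgeR adjusted p = 0.00526). LOC114131297 is named outside the rule, to show what the list holds. The mitochondrial manganese superoxide dismutase LOC114125784, which turns superoxide into hydrogen peroxide, had 130, 113 and 120 CPM in the resistant and 53.9, 53.2 and 52.1 CPM in the susceptible libraries. Its log2 fold change was 1.19 ± 0.09 (edgeR adjusted p = 4.48e-05). The copper-zinc dismutase LOC114132179 had 139, 184 and 203 CPM in the resistant and 82.5, 79.2 and 80.9 CPM in the susceptible libraries (1.12 ± 0.14, edgeR adjusted p = 0.000553). Both sets of libraries were apart. None was lower, also at an unadjusted p under 0.05 and with DESeq2. With libraries scaled by their totals alone, 3 of the 5 were called higher.

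In the remaining lists few genes passed the test. Of 5 tested genes of the list of hydrogen peroxide sources 2 were higher and 0 lower (median 0.09, or -0.06 with library totals alone). Over all tested genes 21.4% were higher and 14.4% lower. In this list 1 gene was lower at an unadjusted p under 0.05, and DESeq2 called 1 lower. Named outside the rule to show what the list holds, LOC114123444 is a dual oxidase maturation factor (0.09 ± 0.10, edgeR adjusted p = 0.505). The genes that rose were the sulfhydryl oxidase LOC114121213 (0.60 ± 0.11, edgeR adjusted p = 0.00332) and the dual oxidase LOC114128657 (0.30 ± 0.08, edgeR adjusted p = 0.0206). LOC114128657 was not called without resistant replicate 2 or susceptible replicates 1, 2 and 3 (adjusted p = 0.0862, 0.0783, 0.101 and 0.0811), which left 1 higher in each case, nor with library totals alone (0.15, adjusted p = 0.244). Without resistant replicate 1, 1 gene of this list was lower.

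Of 10 tested phospholipase A2 and lysophospholipid acyltransferase genes, the activities that mammalian peroxiredoxin 6 also has, 2 were higher and 0 lower (median 0.14, or -0.01 with library totals alone). That is near the 21.4% of all tested genes called higher, and is no result about these genes; 14.4% of all were called lower. None was lower at an unadjusted p under 0.05 in edgeR, and DESeq2 called 2 higher and 0 lower. The calls were on the calcium-independent phospholipases LOC114132380 (0.63 ± 0.20, edgeR adjusted p = 0.038) and LOC114132376 (0.42 ± 0.11, edgeR adjusted p = 0.0183). Both were lost with library totals alone (adjusted p = 0.114 and 0.128) and without each of the susceptible replicates in turn, where the count was 0. LOC114132376 was also lost without resistant replicate 2 (0.0771). Without resistant replicate 3, LOC114132380 was lost (0.0976) and the number higher was 1, and without resistant replicate 1 it was 3.

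Of the 3 genes for the cap'n'collar and Maf transcription factors, which control antioxidant genes in insects, 0 were higher and 0 lower with edgeR, also at an unadjusted p under 0.05 and with DESeq2. Their median log2 fold change was 0.10, or -0.06 with library totals alone, and 1 was higher without resistant replicate 3.

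**Figure D5:**
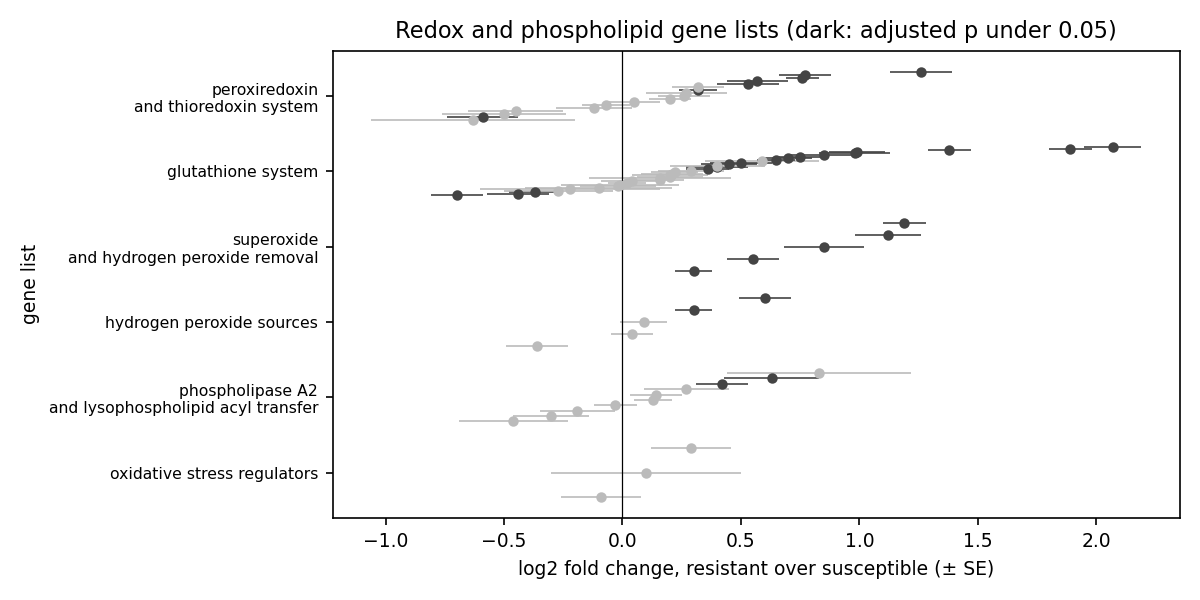
Log2 fold change, resistant over susceptible, with its SE (horizontal axis) for each tested gene of the 6 lists apart from the 2 peroxiredoxin-6-like genes; dark points have an edgeR adjusted p under 0.05. All 5 genes of the superoxide and hydrogen peroxide removal list lie above 0, while the regulators and the phospholipid enzymes lie on both sides of 0.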

How the data were processed

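The authors deposited 1 table of 14013 genes with whole-number read counts per gene, not normalized, and FPKM (fragments scaled by gene length and library size) for each of the 6 libraries, per the file headers. Reads were handled with fastp 0.22.0 and HISAT2, per the submitters' processing notes. Counter, strand setting, annotation, build: not given in the sources used here. Overlapping and antisense genes therefore cannot be told apart. Groups follow the sample titles.

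Counts were fitted in R 4.3.3 with edgeR 4.0.16: TMM, filterByExpr (minimum count 10, minimum total 15; 11149 genes kept, both peroxiredoxin-6-like genes among them), quasi-likelihood F test with strain as the only term, and Benjamini-Hochberg adjustment with a threshold of 0.05. CPM uses TMM-scaled library totals. DESeq2 1.42.0 was an alternative. FPKM was used to compare levels between genes and between strains, and was not tested. It was used as deposited except where division by TMM factors is stated. The script was tested on simulated data. All 6 libraries were kept, since no pair within a strain agreed within sampling noise (chi-square over degrees of freedom 7.05 to 127). Figures used Python 3.11.15 and matplotlib 3.10.9.

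The genes, lists and tests were chosen with earlier results of these data known. The 6 lists are text patterns on the product description. Named were all peroxiredoxins, 5 neighbours each side (reference table of assembly ASM2018417v2, in which 10738 of 12815 LOC identifiers matched; no coordinates used), the 5 most similar profiles per gene (log2 CPM, prior count 2), the 5 highest genes counted in 1 strain alone per direction, and up to 2 called genes per list and direction without overlap and with 5 CPM or more in the higher strain. Alternatives covered scaling, filters, tool, replicate block and leaving out each library.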

Additional observations from a re-analysis of the deposited data

How the results depend on the processing

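LOC114126282 stayed at 0 CPM in the resistant strain, and LOC114132436 stayed higher there, with a log2 ratio of strain means between 0.38 and 0.55 when 1 library was left out, 0.33 with library totals alone and 0.35 on FPKM. Library totals alone moved the median of all genes by -0.15 on the log2 scale and the susceptible means to 17.3 CPM for LOC114126282 and 58.8 CPM for LOC114132436. They left 3 genes higher in the superoxide and hydrogen peroxide removal list, 1 higher and 1 lower among hydrogen peroxide sources and 0 higher among phospholipases. The summed level of the pair reversed, with a log2 ratio of -0.15 on FPKM and 0.01 after TMM factors. In the latter, resistant replicate 1 was the highest library, and resistant replicates 2 and 3 lay below every susceptible one.

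The replicate numbers shared by the strains did not pair the libraries (correlations of deviations -0.0114, -0.0299 and -0.0153); with a replicate block, hydrogen peroxide sources and phospholipases each had 1 gene higher. DESeq2 called 1 hydrogen peroxide source lower. With 10 neighbours on each side, 1 neighbour of LOC114126282 had 0 counts in the resistant libraries, LOC114122585, which had none in any library. Of its 12 tested neighbours 3 were then higher and 2 lower (median -0.135). Of the 17 around LOC114132436, 9 were higher and 2 lower (median 0.59), beside 21.4% and 14.4% of all tested genes.

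Leaving out each library gave between 788 and 2826 genes lower in the resistant strain, in place of 1611. It gave between 1593 and 3249 genes higher, in place of 2383. The ranges were 3 to 9 higher and 0 to 2 lower for the thioredoxin list, 1 to 3 lower for the glutathione list, 1 to 2 higher and 0 to 1 lower for hydrogen peroxide sources, 0 to 3 higher for phospholipases and 0 to 1 higher for regulators. The peroxiredoxin LOC114128133 ranged from -0.16 to 0.05 and turned to 0.03 and 0.05 without resistant replicates 2 and 3. With 3 counts taken as the limit, the depth places LOC114126282 at or below 0.0274 CPM in the resistant strain. That bound covers counting error alone. It assumes that reads of the gene would be assigned to it in that strain, which was not tested.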
